A study of Caenorhabditis elegans with 14 samples.

Results

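The fatty acid and retinol binding protein genes far-1 to far-8 of Caenorhabditis elegans were followed on the arrays of a study of microwave exposure. They were found by their symbols in the platform annotation: all 8 members named had 1 probe set each, listed under that gene alone, out of 17118 genes with such a probe set. These genes were selected on their log2 ratios, with every array in view and the difference between the 2 heat control arrays among them, so the values of the members below are given as descriptions, with no p-value of their own. Counts of far genes past a threshold, taken from fits over all probe sets, describe them as well and test nothing about them.

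The worms were wild type, strain N2, kept at 15 °C on an Escherichia coli lawn and grown as synchronised cultures to L4, the last larval stage. For 5 microwave arrays the worms spent 2.5 h at 26 °C in a silver-plated transmission cell with a continuous field that deposited 5 to 40 mW per kg, and for 5 sham arrays they spent the same time at the same temperature in a copper cell with no field. The field frequency is given as 1.8 GHz in one protocol and 1 GHz in another, and each of these arrays received the pooled RNA of 3 runs. A further 2 arrays were labelled heat shock and 2 heat control, whose temperature and duration were not stated in what was available here. Every array held RNA of whole worms, so that fewer cells of a type and less RNA per cell cannot be told apart.

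The deposited values were linear ratios, not signals. Every sham column held 1 for each probe set, so a microwave column was taken as a ratio to its like-numbered sham array. The heat control columns, 2 in number, added up to 2 for each probe set within 0.001, so all 4 heat columns were read as ratios to the mean of the 2 heat controls. These baselines are inferred from the values. The ratios carry no expression level, so which far gene was most abundant, and which was above background, is unknown. A heat control ratio on this scale cannot exceed 2.

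FAR proteins are small, helix-rich lipid carriers of nematodes that hold fatty acids and retinol in a hydrophobic pocket. Most carry a signal peptide and are secreted, and parasitic nematodes release them into their hosts. By sequence the worm family is sorted into group A (far-1, far-2 and far-6), group B (far-3, far-4 and far-5) and group C (far-7 and far-8), and FAR-7 lacks the signal peptide that most members carry. By RefSeq's table for the WBcel235 assembly, far-1 and far-2 are direct neighbours on chromosome III. On chromosome V far-5, far-3 and far-4 follow each other with no other protein-coding gene between them, and the annotated spans of far-5 and far-3 overlap. The far-6 gene lies on chromosome IV beside the fatty acid desaturase gene fat-2, far-7 on chromosome II and far-8 on chromosome III. The probe sets of far-1 and far-3 are of the type that can match several genes, so signal from a related transcript may enter both.

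The heat arrays need a caution before their directions are read. The chaperone genes that heat is known to induce were low where the label reads heat shock: hsp-16.2, hsp-16.41 and hsp-70 had log2 fold changes against heat control of -4.86 ± 0.17, -4.98 ± 0.36 and -3.34 ± 0.17 (SE over 2 and 2 arrays; adjusted p by limma 0.00232, 0.00248 and 0.00232), the reverse of their known response. Directions below follow the labels. If the labels were exchanged, the heat fold changes turn, and the difference described here between 2 heat controls lies between 2 heat shock arrays. If instead the deposited ratios of the arrays labelled heat shock ran the other way, their log2 ratios turn. The differences between the controls would stay, since inverted ratios to the mean of the controls would not add up to 2 where the controls differ. The arrays labelled heat shock had a median 0.10 log2 units above the controls, and over all 22548 probe sets the median log2 fold change was 0.12.

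The widest difference of the family was between the 2 control arrays, in far-3 of group B. Its ratio was 0.0494 in heat shock 1 and 0.0697 in heat shock 2, against 0.0325 in heat control 2 and 1.967 in heat control 1. Heat control 1 thus stood alone, and heat control 2 lay below both arrays labelled heat shock. Control 2 was 60.5-fold below control 1, a log2 difference of -5.92, which ranked 1 in size among the 22548 probe sets. Past 2-fold between the controls in either direction were 632 probe sets, or 2.80%, and of the far genes only far-3.

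The heat fold change of far-3 depended on which control it was set against. With both controls in the limma fit the log2 fold change was -2.11 ± 1.83 (moderated SE, n = 2 per group). The error nearly equals the difference, although moderation drew it below the error that the 4 arrays of far-3 alone would give. Against control 1 alone the arrays labelled heat shock were 33.5-fold lower, at -5.07 log2 units. Against control 2 alone they were 1.81-fold higher, at 0.85 log2 units. Against the linear mean of the controls, the baseline of the deposited columns, they stood at -4.09.

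The chromosomal neighbours of far-3 showed no such gap. For far-4 the log2 ratios were 0.08 and 0.07 on the arrays labelled heat shock and 0.003 and -0.003 on heat controls 1 and 2. All 4 ratios of far-4 lay within 1.06-fold of the baseline, and its log2 fold change was 0.08 ± 0.12 (SE, n = 2 per group) or, with each array centred on its median, -0.03. For far-5 the log2 ratios were 0.55 and 0.54 on the arrays labelled heat shock and 0.08 and -0.08 on the heat controls. The groups of far-5 did not overlap, the heat shock arrays were 1.46-fold higher, and the log2 fold change was 0.55 ± 0.13, or 0.45 after centring. Whether the far-5 and far-3 probe sets lie where the spans of these genes overlap is not known here.

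**Figure D1:**
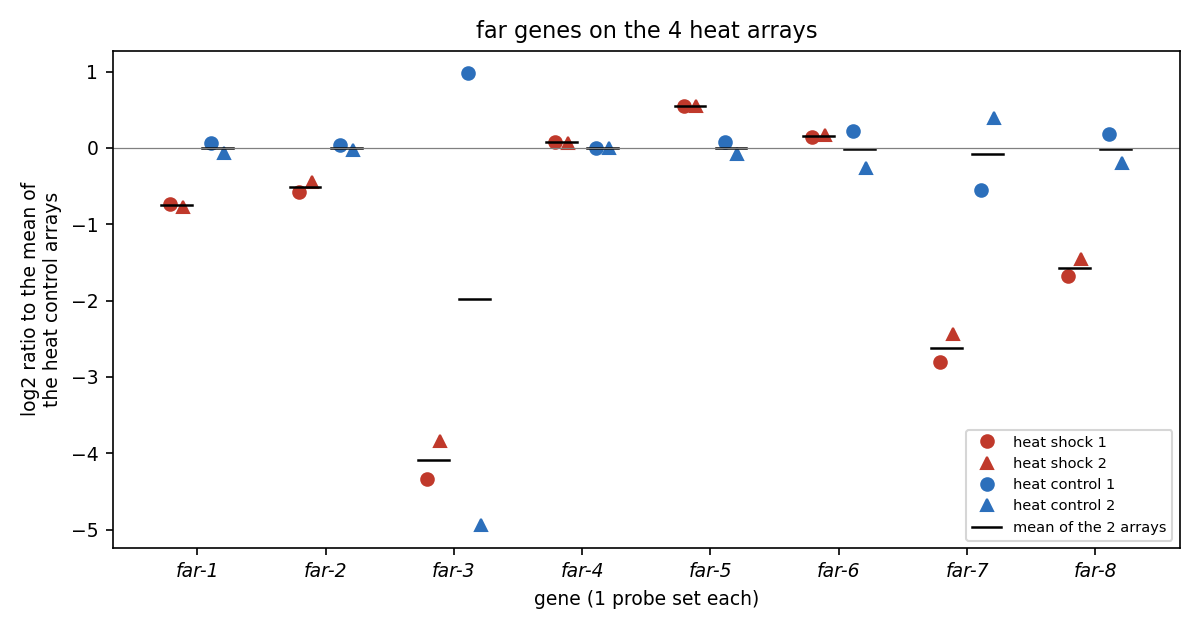
Log2 ratio of each far gene on the 4 heat arrays, relative to the mean of the 2 heat control arrays; red symbols are the arrays labelled heat shock, blue symbols the heat controls, circles replicate 1, triangles replicate 2, and bars the mean of the 2 arrays. For far-3 heat control 2 lies at -4.94 and heat control 1 at 0.98, while for the other 7 genes the 2 controls lie within 0.94 log2 units of each other.

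Both genes of group C were lower on the arrays labelled heat shock. For far-7 the ratios were 0.143 and 0.185 on those arrays, against 0.684 and 1.316 on heat controls 1 and 2. The groups did not overlap and the heat shock arrays were 5.83-fold lower, at a log2 fold change of -2.54 ± 0.33 (SE, n = 2 per group). The controls of far-7 differed by 0.94 log2 units with control 2 above control 1, opposite to far-3, and this ranked 725 in size among all probe sets. For far-8 the ratios were 0.312 and 0.364 on the arrays labelled heat shock, against 1.129 and 0.871 on the heat controls. Its groups did not overlap either, and its log2 fold change was -1.56 ± 0.18, or 2.94-fold lower. In both genes heat shock 1 was the lower of the pair.

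In group A the neighbours far-1 and far-2 were lower on the arrays labelled heat shock too, by smaller amounts. For far-1 the ratios were 0.599 and 0.587 on the arrays labelled heat shock, against 1.047 and 0.953 on the heat controls, a log2 fold change of -0.75 ± 0.13 (SE, n = 2 per group). For far-2 they were 0.667 and 0.735, against 1.023 and 0.977, a log2 fold change of -0.51 ± 0.13. Neither gene had overlapping groups. Among the 28 pairs of far genes, far-1 and far-2 had the smallest root mean square difference of log2 ratios over the 9 arrays with measured spread, 0.13. Over the 5 microwave arrays alone far-4 and far-8 were the closest pair, at 0.03, with far-1 and far-2 next at 0.06. Over the 9 arrays genes outside the family lay closer, with ucr-2.1 at 0.04 from far-1 and lsy-13 at 0.06 from far-2. The far-1 probe set can match several genes, and whether far-2 is among them is not known here. The third gene of the group, far-6, had ratios of 1.106 and 1.125 on the arrays labelled heat shock, against 1.167 and 0.833 on the heat controls, so the heat shock arrays lay between the controls, and its log2 fold change of 0.18 ± 0.19 was smaller than its error.

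Over the family, 4 genes lay below both controls on the arrays labelled heat shock (far-1, far-2, far-7 and far-8), 2 lay above both (far-4 and far-5) and 2 overlapped (far-3 and far-6). Over all probe sets 28.1% lay below both controls and 44.3% above both. With each array centred on its median, far-4 turned to the lower side, so that 5 far genes lay below both controls and 1, far-5, above both, where 34.9% of all probe sets lay below and 34.6% above. In the limma fit over 22548 probe sets, 5 far genes passed an adjusted p of 0.05, 1 higher and 4 lower, where 30.0% of all probe sets passed, 14.7% higher and 15.3% lower. These counts describe genes chosen with their values in view. Fits without 1 of the heat shock arrays leave 1 array in that group. In them the far genes no longer passed, and the count over all probe sets fell as well. The only call toward higher values, far-5, was lost after centring, with the replicate block and without heat control 2, and far-2 was lost with the block and without either heat control. The median log2 fold change of the 8 genes was -0.63.

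**Figure D2:**
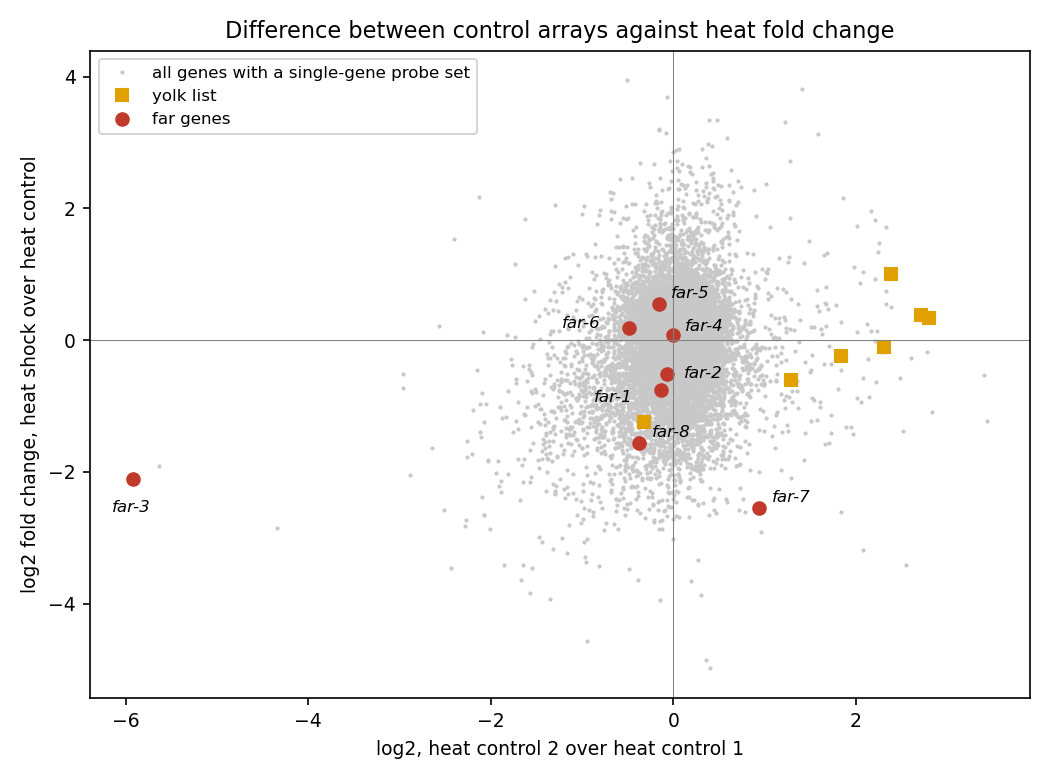
Each point is a gene, with the log2 difference of heat control 2 over heat control 1 on the horizontal axis and the log2 fold change of heat shock over heat control on the vertical axis; red points are the far genes, yellow squares the yolk list and grey points all genes with a single-gene probe set. The far-3 point lies farthest from 0 on the horizontal axis, at -5.92, and the 5 vitellogenin genes measured lie between 1.84 and 2.80 on the other side.

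The 2 heat control arrays differed in other gene groups as well. In the yolk list 6 of 7 measured genes were more than 2-fold higher in control 2 than in control 1, with a median log2 difference of 2.31, against 0.02 over all genes. The egg yolk gene vit-5 was at 2.80 and vit-4 at 2.71. Of 9 oocyte markers 6 were more than 2-fold higher in control 2, and of 10 moult markers 5 were more than 2-fold lower, with a median of -0.95. Of 5 adult cuticle markers 4 were more than 2-fold lower in control 2, with a median of -1.24, and of 13 hypodermis markers 4, with a median of -0.55. The lists share genes: bli-1, bli-2 and rol-6 are in both the hypodermis and the adult cuticle list, noah-1 and noah-2 in both the hypodermis and the moult list, and rme-2, for the yolk receptor, in both the yolk and the oocyte list. Of 12 intestine markers 2, mtl-2 at 1.59 and ftn-1 at 1.29, were more than 2-fold higher in control 2, with a list median of 0.12, and of 7 muscle markers 0 were past 2-fold, with a median of -0.01. Over all genes 0.964% were more than 2-fold higher in control 2 and 1.81% more than 2-fold lower. The part of these groups in the far-3 and far-7 differences was not tested, and without levels it cannot be said which markers were near 0.

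Several of these lists also held genes that passed between the heat groups, beside far-7 and far-8. Of 13 hypodermis markers 6 passed as lower on the arrays labelled heat shock and 0 as higher, with a median log2 fold change of -0.78. Of 12 intestine markers 9 passed as lower and 1 as higher, with a median of -0.79, and of 7 muscle markers 6 passed as lower and 1 as higher, with a median of -0.88. Of 10 moult markers 4 passed as lower and 1 as higher. Of 7 measured sperm markers 4 passed as higher and 2 as lower, of 9 oocyte markers 0 passed, of 5 adult cuticle markers 1 passed as higher and 1 as lower, and of 7 yolk genes 1 passed as lower. Their part in the far values was not tested. At gene level 14.8% of all genes passed as lower and 15.2% as higher (limma, 17118 genes).

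The genes whose 9 log2 ratios lay nearest to those of each far gene, by root mean square difference over the arrays, were then listed. Nearest to far-3 was gst-21, a glutathione S-transferase gene, at 0.26 log2 units. Its log2 ratios were -4.10 and -3.43 on the arrays labelled heat shock and 0.97 and -4.66 on heat controls 1 and 2, so it too was low on every heat array but control 1. The infection response gene irg-5 followed at 0.61 and the C-type lectin gene clec-174 at 1.13. Control 2 minus control 1 was -5.63 for gst-21, -4.34 for irg-5 and -2.44 for clec-174. In microwave pair 1 far-3 stood at -0.51, gst-21 at -0.08, irg-5 at 0.48 and clec-174 at 0.28.

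Nearest to far-7 were ule-3 at 0.21, dap-1 at 0.27 and maoc-1, a gene of peroxisomal fatty acid oxidation, at 0.28. Their heat log2 fold changes were -2.46, -2.40 and -2.69. Nearest to far-8 were D2023.4 at 0.09, R04F11.5 at 0.10 and the Ras-like gene ras-2 at 0.10. For far-1 they were ucr-2.1, of the respiratory chain, the aspartyl protease gene asp-3, and soc-2, at 0.04 to 0.06, and for far-2 lsy-13, pelo-1 and Y49E10.4, each at 0.06. Nearest to far-4 were suex-2, chil-4 and B0391.1, nearest to far-5 were lim-7, F31F4.11 and glb-13, and nearest to far-6 were best-26, twk-28 and srlf-1, at 0.04 to 0.08. These distances do not compare between members, whose own ratios differ in size. The root mean square of the 9 log2 ratios from 0 was 0.13 for far-4 and 0.15 for far-6, against 1.28 for far-7 and 2.57 for far-3. Likeness over 9 arrays that share their baselines is a description only.

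**Figure D3:**
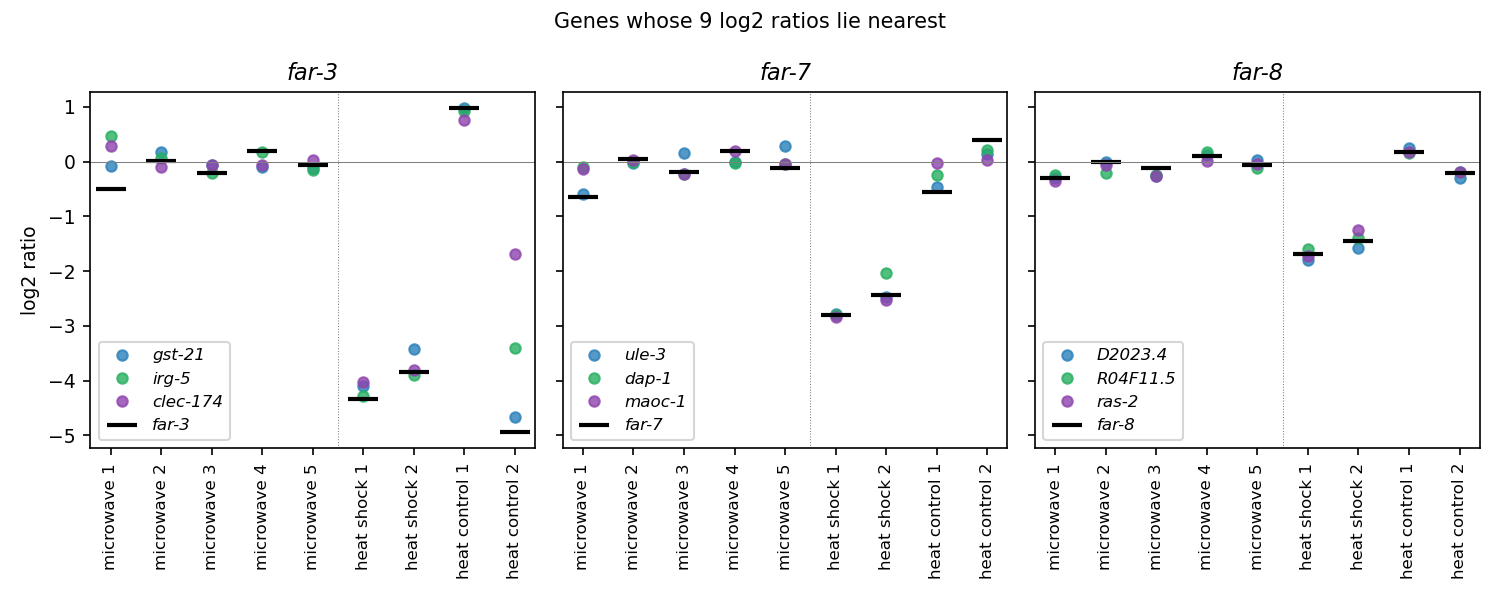
Log2 ratios on the 5 microwave and 4 heat arrays for far-3, far-7 and far-8 (black bars) and for the 3 genes nearest to each (coloured points), each array relative to its own baseline. The 4 genes of the far-3 panel all lie at -1.68 or lower in heat control 2. Since the 2 control ratios add up to 2, this alone places them above 0.7 in heat control 1.

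The microwave comparison asked whether the field altered transcript levels at matched temperature, and no probe set of the table passed an adjusted p of 0.05 (0 of 22548, 0%; limma, lowest adjusted p = 0.861); 782 probe sets, or 3.47%, had an unadjusted p under 0.05. The mean log2 ratios of the 8 far genes over the 5 pairs ran from -0.14 for far-7 to 0.05 for far-6, and single pairs from -0.65 to 0.38. The median of the 8 means was -0.03, against -0.001 over all probe sets.

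In group C far-7 had log2 ratios of microwave over sham of -0.65, 0.06, -0.19, 0.19 and -0.11 in pairs 1 to 5, and a mean of -0.14 ± 0.32 (SD, n = 5). For far-8 they were -0.30, -0.01, -0.11, 0.10 and -0.06, with a mean of -0.08 ± 0.15. Pair 1 was the lowest and pair 4 the highest for both genes.

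In group B far-3 had -0.51, 0.01, -0.22, 0.19 and -0.06, with a mean of -0.12 ± 0.26 (SD, n = 5). No pair approached the span of far-3 between the heat controls. For far-4 the log2 ratios were -0.32, -0.01, -0.16, 0.12 and -0.04, with a mean of -0.08 ± 0.16. The 4 genes far-3, far-4, far-7 and far-8 thus had their lowest ratio in pair 1, their next lowest in pair 3 and their highest in pair 4. The share of all probe sets with this order was not counted. For far-5 the log2 ratios were -0.08, -0.05, -0.01, -0.06 and 0.38, with a mean of 0.03 ± 0.19, and pair 5 alone was above 0.

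In group A the values of far-1 were 0.22, -0.01, -0.10, 0.03 and 0.09, with a mean of 0.05 ± 0.12 (SD, n = 5), and those of far-2 were 0.22, 0.02, -0.12, -0.05 and -0.01, with a mean of 0.01 ± 0.12. For far-6 they were 0.14, 0.02, -0.003, -0.01 and 0.10, with a mean of 0.05 ± 0.07. In these 3 genes pair 1 was the highest, the reverse of far-3, far-4, far-7 and far-8. How many of all probe sets had their highest or lowest ratio in pair 1, the pair with the widest spread, was not counted. In pair 3 all 8 far genes were below 0, between -0.22 and -0.003, where 54.4% of all probe sets were below 0.

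Pair 1 had the widest spread of the microwave pairs. Over all probe sets log2 ratios had an SD of 0.39 there, against 0.10 to 0.16 for pairs 2 to 5, and the mean 3' minus 5' difference of 5 worm control transcripts was -0.74 there, against -0.13 to 0.03. Without pair 1 the mean of far-7 was -0.01, that of far-3 -0.02, that of far-8 -0.02 and that of far-4 -0.02, while far-1 stood at 0.002, far-2 at -0.04, far-5 at 0.06 and far-6 at 0.02. On the heat arrays the same 3' minus 5' difference lay between -0.02 and 0.05, heat control 1 and 2 included.

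**Figure D4:**
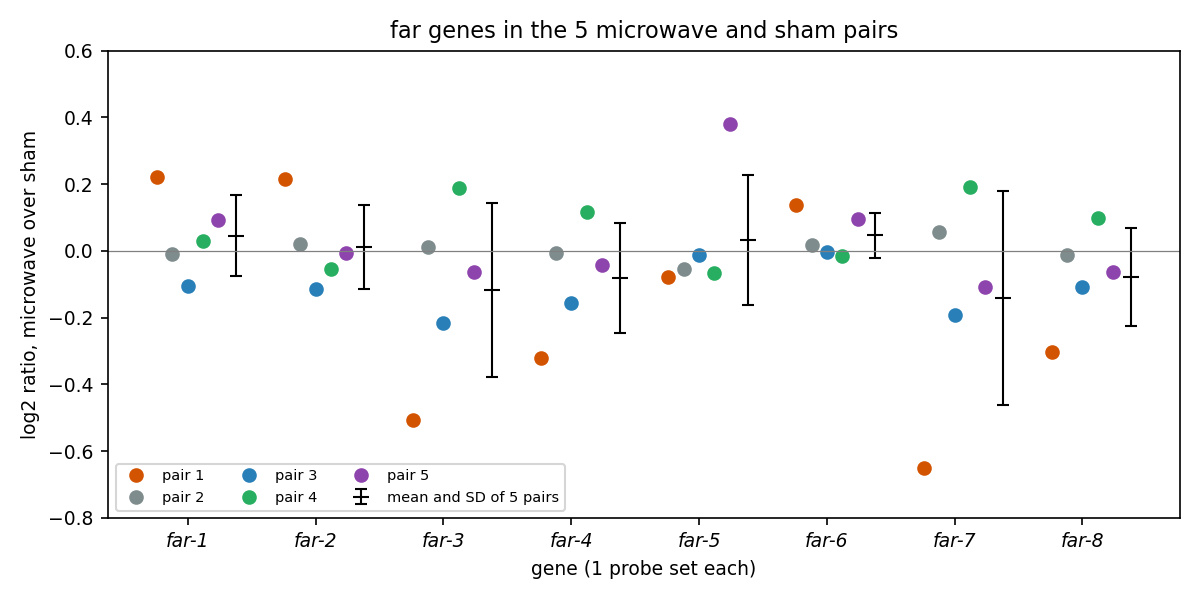
Log2 ratio of microwave over sham for each far gene in the 5 pairs (coloured points), with the mean and SD of the 5 pairs in black. In pair 1 far-7 lies at -0.65 and far-3 at -0.51, and in pair 5 far-5 lies at 0.38; all other points lie between -0.32 and 0.22.

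Other lipid carriers and their regulators were counted from lists that do not hold far genes. These lists share rme-2 with the oocyte markers and nhr-25 with the hypodermis markers. Of 40 measured genes in 5 lists, 5 rose and 7 fell on the arrays labelled heat shock and 28 did not pass (limma, adjusted over 17118 genes), which is 12 of 40, against 30.0% of all genes. That count fell in fits without 1 of the heat shock arrays, as did the count over all probe sets. It rose in fits without 1 of the heat controls, where the count over all probe sets did not rise. Each of these fits leaves 1 array in a group. In the microwave fit 0 of 40 passed, where 0 of 17118 genes passed and 571, or 3.34%, had an unadjusted p under 0.05.

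Among 9 genes of the intracellular lipid binding protein family, lbp-6 rose, at a log2 fold change of 0.59 ± 0.13, and lbp-3 fell, at -1.0 ± 0.19 (SE over 2 and 2 arrays, adjusted p by limma 0.0293 and 0.0201). The other 7 did not pass. Among 6 acyl-CoA binding proteins acbp-6 rose, at 2.57 ± 0.11, as did acbp-1 at 0.83 ± 0.19, and maa-1 fell, at -0.96 ± 0.26 (limma adjusted p = 0.00232, 0.0300 and 0.0455). Among 7 yolk genes dsc-4, for the microsomal triglyceride transfer protein that loads lipid onto lipoproteins, fell, at -1.23 ± 0.15 (limma adjusted p = 0.00625), and 6 did not pass. Of 8 lysosomal lipase genes lipl-5 and lipl-3 rose, at 1.07 ± 0.23 and 0.65 ± 0.12, and lipl-7 fell, at -0.87 ± 0.19 (limma adjusted p = 0.0271, 0.0189 and 0.0271). Of 10 regulators 3 fell, the fatty acid metabolism receptor genes nhr-49, at -1.60 ± 0.15, and nhr-66, at -0.61 ± 0.13, and the stage regulator lin-29, at -1.08 ± 0.16 (limma adjusted p = 0.00379, 0.0253 and 0.0102). Between the controls, lipl-2 and lipl-1 were higher in control 2 by 2.08 and 1.24 log2 units, lbp-5 by 0.97, maa-1 by 0.73, nhr-13 by 0.60 and nhr-80 by 0.54, and lbp-7 and acbp-3 stood at -0.50 and -0.65.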

How the data were processed

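Total RNA was hybridised to 14 Affymetrix arrays. The authors deposited the values as linear ratios. Images went through GCOS and MAS 5 per the labels' protocols, while RMA, unversioned, appears in the submitters' processing notes; which of them made the values, and the genome build, are not given in the sources used here. From the 22625 probe sets, 77 array controls were removed. Names came from the platform annotation, updated by gene identifier through RefSeq's WBcel235 table: 20766 had 1 gene, 887 several and 895 were not listed. Log2 ratios were fitted with limma 3.58.1 in R 4.3.3 over all probe sets, or over gene means for the lists: microwave as the mean of 5 pair ratios against 0, which holds the pairing, and heat as a difference of group means without a block. Two-sided p-values were adjusted (Benjamini-Hochberg, threshold 0.05). No floor was set, since ratios carry no level.

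The members, gene lists and tests were chosen with earlier results of these data known. The named genes are all 8 members, 3 chaperone genes as a check of the labels, for each member the 3 nearest genes by root mean square difference, and from each list up to 3 genes past the threshold with the largest heat fold change and up to 2 with the largest control difference. The fits were tested on simulated data. No source says that the 2 arrays of a heat group came from separate cultures. The heat p-values thus rest on the spread between these arrays, moderated over all probe sets or genes, and that spread may be technical. The same-numbered heat deviations correlated at -0.05 across probe sets, and the numbers were not taken to pair the samples. The array number limits precision. The array information sheets hold no scan date, and no batch could be examined. No probe or protein sequences were used here.

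Alternatives were median centring, dropping probe sets of the types that may hit several genes, robust variance moderation, array weights, quantile normalisation, a replicate block, other fold limits for the controls, leaving out each replicate, and, chosen after seeing the data, other baselines for the heat fold changes and the overlap counts after centring. A crossed pairing was not run, since the correlation was not under -0.1.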

Additional observations from a re-analysis of the deposited data

Results flagged for a closer look

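The far-5 log2 ratio of microwave over sham was 0.38 in pair 5, while the other 4 pairs lay between -0.08 and -0.01. Its gap to the next pair was 0.857 of the whole range, beyond the Dixon limit for 5 values. Chance alone gives such a flag in about 5% of groups, and 8 genes were examined. Without pair 5 the far-5 mean was -0.05, against 0.03 over all 5 pairs. In that array the value stood at the 99.5th percentile of all probe sets.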

How the results depend on the processing

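The microwave count of probe sets past the threshold was 0 under all 5 other settings and in every fit that left out 1 pair. The heat count of 6774 was 4338 after dropping probe sets of the types that may hit several genes and 4312 with the replicate block, and ranged from 0 to 6594 when 1 array was left out. After centring, 2177 were higher and 3943 lower, against 3317 and 3457 as deposited. The 5 far genes past the threshold became 3 with the replicate block (far-1, far-7 and far-8). Leaving out 1 array keeps 1 array in a group, and the set of far genes past the threshold then changed. Without heat control 2 it took in far-3, at -5.07, and lost far-2 and far-5. The 12 genes of the lipid lists became 7 with the block and ranged from 0 to 21 when 1 array was left out. Probe sets past 2-fold between the heat controls numbered 632, or 390 after the same removal, 1839 at 1.5-fold and 88 at 4-fold. After it far-1 and far-3 had no value. No heat fold change of the 5 far genes past the threshold changed sign under these settings.

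Of the values for single far genes, 5 moved by more than their own spread, all under median centring, which lowered each heat fold change by 0.10 log2 units: far-1 stood at -0.85, far-2 at -0.62, far-4 at -0.03 and far-5 at 0.45, and the far-4 control difference stood at -0.03. The far-3 heat value was -5.07 without heat control 2 and 0.85 without heat control 1, and that of far-6 was -0.07 and 0.42. Precision is limited by 2 arrays per heat group, and signal over background is unknown.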
